A study of Mus musculus with 8 samples.

Results

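Open chromatin was examined around 5 transcription factor genes of the neural plate and neural tube, Sox2, Pax6, Irx3, Olig2 and Nkx2-2, in mouse tailbuds taken at embryonic day 9.5. A window of the mm9 genome was set around each gene, and every counted region that overlapped it was a member. The windows were 34.30 to 34.95 Mb of chromosome 3 for Sox2, 105.40 to 105.70 Mb of chromosome 2 for Pax6, 94.10 to 94.50 Mb of chromosome 8 for Irx3, 91.15 to 91.30 Mb of chromosome 16 for Olig2 and 146.95 to 147.05 Mb of chromosome 2 for Nkx2-2. Together they spanned 1600 kb and held 18 of the 26620 regions counted in the series, 4 for Sox2, 8 for Pax6 and 2 each for Irx3, Olig2 and Nkx2-2. Among the counted regions, membership used position alone. The windows were chosen with earlier results of these data known, and a region entered the counts only with a peak in at least 2 libraries.

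The assay was ATAC-seq, in which the Tn5 transposase cuts and tags accessible DNA. The 4 WT libraries came from embryos of genotype WT/WT and the 4 Sd/Sd libraries from embryos homozygous for Danforth's short tail, a spontaneous allele whose carriers were kept as Sd/+ on an outbred CD-1 background. CD-1 is the labelled background of both groups. Tissue of more than 1 embryo was combined for some libraries, so a library is not always a single embryo. Library totals over the counted regions ran from 2873918 to 3451166 counts for WT and from 3090233 to 4180434 for Sd/Sd. A tailbud is a mixture of progenitors, forming neural tube, mesoderm, notochord and hindgut, so fewer open cells and less opening per cell cannot be told apart. The labelled tissue was not checked against marker genes, and other neural genes were not counted, because no gene table of the mm9 build was used here.

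As background, SOX2 marks the neural plate and the posterior progenitors that can form either spinal cord or mesoderm. As the tube closes, Sonic hedgehog from notochord and floor plate sets up stripes of progenitors along its ventral to dorsal axis. PAX6 and IRX3 mark intermediate and dorsal progenitors, and hedgehog signalling holds them out of the most ventral ones. OLIG2 marks the progenitors of motor neurons, and NKX2-2 marks those of the most ventral interneurons. The notochord of Sd embryos is known to degenerate, so these windows address whether chromatin near the responding neural genes differed.

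RefSeq promoter windows of build GRCm38.p6 matched all 5 genes, with 2 starts listed for Pax6. The 250 bases before the start are printed for Sox2, the founding factor of the neural plate, and for Pax6 (first start) and Olig2, whose windows held the regions of smallest p. Capitals mark matches to searched motifs. The Sox2 stretch lies at chr3:34649745-34649994 on the + strand, the Pax6 stretch at chr2:105668646-105668895 on the + strand and the Olig2 stretch at chr16:91225300-91225549 on the + strand. These are GRCm38.p6 positions and cannot be set beside the mm9 positions of the counted regions, so no counted region is called a promoter here.
Sox2: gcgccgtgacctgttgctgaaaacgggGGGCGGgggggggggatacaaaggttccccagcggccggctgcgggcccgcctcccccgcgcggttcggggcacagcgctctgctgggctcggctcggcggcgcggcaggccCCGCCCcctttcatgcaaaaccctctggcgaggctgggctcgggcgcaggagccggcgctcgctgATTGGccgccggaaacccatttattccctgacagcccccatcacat
Pax6: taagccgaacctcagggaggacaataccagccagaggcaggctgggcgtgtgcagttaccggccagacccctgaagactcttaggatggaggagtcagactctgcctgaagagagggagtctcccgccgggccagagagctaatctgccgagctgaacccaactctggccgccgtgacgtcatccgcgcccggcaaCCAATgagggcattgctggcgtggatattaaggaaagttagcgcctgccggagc
Olig2: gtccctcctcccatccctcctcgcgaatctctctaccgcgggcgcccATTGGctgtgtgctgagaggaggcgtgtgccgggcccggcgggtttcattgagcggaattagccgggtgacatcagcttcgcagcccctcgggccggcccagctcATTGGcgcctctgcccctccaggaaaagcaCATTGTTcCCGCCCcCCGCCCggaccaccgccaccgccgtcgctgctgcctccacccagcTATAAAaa

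The Sox2 stretch held 27 CG dinucleotides, the Olig2 stretch 22 and the Pax6 stretch 15, against a median of 6 over 32851 promoter windows. The Nkx2-2 and Irx3 stretches, not printed, held 8 and 13. Both strands were read for each motif. GGGCGG, the GC box, was in the Sox2, Olig2 and Nkx2-2 stretches and in 32.7% of all windows. CCAAT was in those of Sox2, Pax6 and Olig2 and in 33.8% of all. CATTGTT, a SOX motif, was in the Olig2 stretch alone among the 6 and in 3.29% of all. It began 68 bases before the start. TATAAA was likewise in the Olig2 stretch, 8 bases before the annotated start, and in 12.4% of all. None of the 6 stretches held GACCACCCA (GLI, 0.225% of all), ATGCAAAT (octamer, 1.6%), CTTTGAT (LEF/TCF, 3.21%), AGGTGTGA (T-box, 1.12%), CAGCTG (13%) or CATATG (3.46%). No 2 matches overlapped. These are matches of letters in one window per start and say nothing of binding.

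None of the 18 regions differed between the genotypes at the threshold of 0.05 after Benjamini-Hochberg adjustment over 26620 regions (quasi-likelihood test of edgeR), where 0.0188% of all regions passed. DESeq2 and limma with voom also called 0 of the 18. At an unadjusted p under 0.05 there were 2, against 6.06% of all regions: 1 higher in Sd/Sd, in the Pax6 window (2.98% of all were higher), and 1 lower, in the Olig2 window (3.09% of all were lower). The median log2 fold change of the 18 was -0.061, against 0.00057 over all regions, and the median size regardless of sign was 0.0965 against 0.112. The change was above 0 in 6 of 18, against 50.1% of all regions. At all 18 the 95% interval stayed inside a 2-fold difference either way (98.1% of all regions), and at 13 it stayed inside 1.5-fold (73.8% of all regions).

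**Figure D1:**
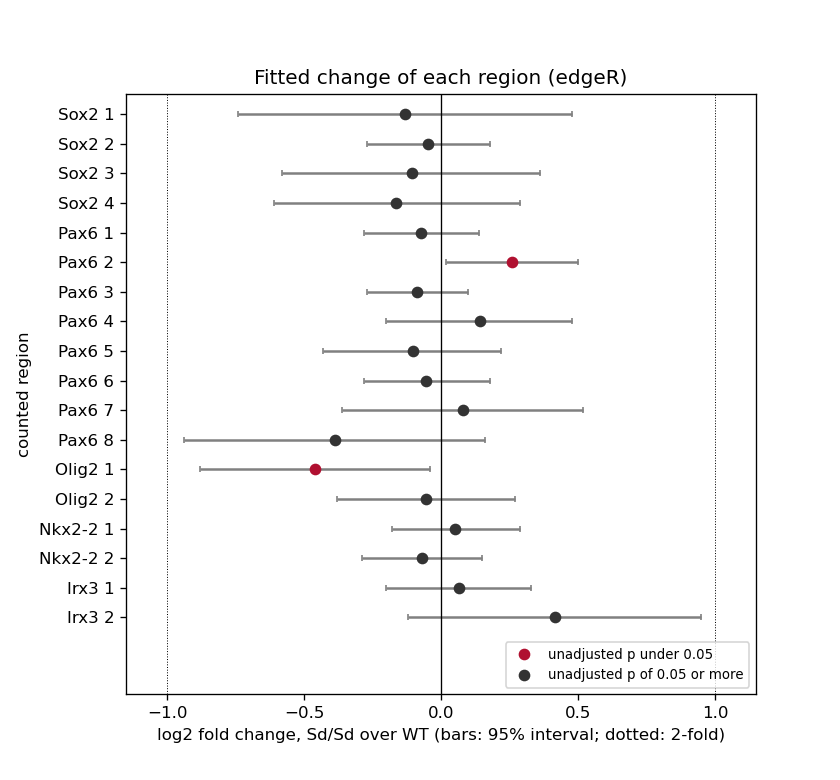
Fitted log2 fold change of Sd/Sd over WT (x axis) for each of the 18 regions (y axis, numbered by position within its window), with 95% intervals. Region 2 of the Pax6 window and region 1 of the Olig2 window are the only intervals that leave out 0, at 0.02 to 0.50 and -0.88 to -0.04, and no interval reaches the dotted lines at a 2-fold change.

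Regions are numbered below by their position within a window, and levels are counts scaled to the library total (CPM). The members fell into wide and narrow regions. Of the 18, 9 were wider than 1 kb, with mean levels of at least 25.6 CPM and a peak, overlapping by at least 1 bp, in at least 6 of the 8 libraries. Another 8 were under 600 bp, with at most 25.9 CPM and a peak in at most 5 libraries. Per length they ran from 23.7 to 47.9 CPM per kb (median 34.3), at percentiles 17 to 81.1 of all regions. Over all regions the median was 32.9 and the highest value 668. The densest member, region 3 of the Pax6 window, exceeded 81.1% of all regions. Counted regions were densest along the genome in the Pax6 window, at 26.7 per Mb, and sparsest in the Irx3 and Sox2 windows, at 5 and 6.15 per Mb, where the whole series had 11 per Mb.

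**Figure D2:**
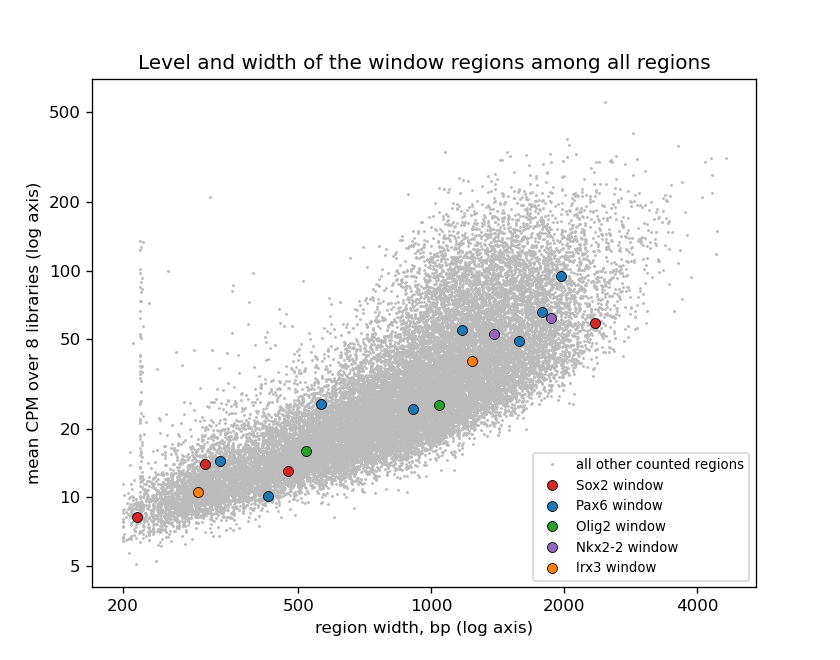
Mean CPM over the 8 libraries (y axis, log) against region width in bp (x axis, log), with the 18 members coloured by window and all other counted regions in grey. The members lie inside the grey cloud, from 8.22 CPM at 216 bp to 94.4 CPM at 1971 bp, and region 2 of the Sox2 window sits in its lower right part, at 2349 bp and 58.6 CPM.

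The Sox2 window held 1 wide region and 3 narrow ones. Region 2, from 34547802 to 34550150 of chromosome 3, was 2349 bp wide, wider than 98.6% of all regions, yet had 25 CPM per kb. Among the 10746 regions wider than 1 kb, 26% were at or below that density. Its levels were 55.3, 62.6, 69.9 and 51.2 CPM in WT replicates 1 to 4 and 61.7, 51.8, 64.5 and 51.9 CPM in Sd/Sd replicates 1 to 4. The genotypes overlapped throughout, with means of 59.8 ± 8.24 and 57.5 ± 6.61 CPM (SD, n = 4 each). The log2 fold change was -0.05 (SE 0.11, 95% interval -0.27 to 0.18, adjusted p = 0.986 in edgeR). A peak was called there in 4 of 4 WT and 3 of 4 Sd/Sd libraries, at a fold enrichment of 2.92 to 3.88 in WT against 3.1 to 3.91 in Sd/Sd (the authors' values).

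The narrow Sox2 regions flanked it. Region 1, from 34539683 to 34539898, lay 7903 bp before it and region 3, from 34563034 to 34563506, lay 12883 bp after it. Region 4, from 34694475 to 34694781, stood a further 130968 bp away and had no other counted region within 544871 bp on its far side. In the RefSeq gene order, Sox2 lies among non-coding genes, with Sox2ot, whose transcript spans Sox2, listed before it. Region 1 had 13, 7.28, 4.18 and 9.66 CPM in WT and 8.33, 10, 6.03 and 7.18 CPM in Sd/Sd. Its counts were 12 to 45 per library, and its spread within groups (34.6% of the mean) was above that of 98% of all regions. It entered the counts through peaks in WT replicates 1 and 4 alone. Region 3 had 13.6, 13.9, 14.6 and 12.3 CPM in WT. In Sd/Sd it had 6.67, 12.6, 14.8 and 16 CPM, so that Sd/Sd replicate 1 lay below and 2 libraries lay above every WT library. Region 4 had the highest density of the window, 45.6 CPM per kb, with 11.3 to 18.8 CPM in WT against 10.8 to 15.5 in Sd/Sd. The log2 fold changes were -0.13 (95% interval -0.74 to 0.48), -0.11 (-0.58 to 0.36) and -0.16 (-0.61 to 0.29) for regions 1, 3 and 4. These 3 intervals leave room for changes of over 1.4-fold, at 12 to 67 counts per library.

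Summed over its 4 regions, the Sox2 window held 95.6, 95, 108 and 88.7 CPM in WT and 91.1, 90, 97.4 and 85.9 CPM in Sd/Sd. The ranges overlapped, with means of 96.7 ± 7.84 and 91.1 ± 4.78 (SD, n = 4 each). The difference of means on the log2 scale, -0.08, was smaller than the SD between libraries of 0.097. Sums were not tested.

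The Pax6 window was the richest, with 8 regions and 38.7 CPM per kb. In the RefSeq gene order the non-coding Pax6os1 and Paupar precede Pax6 and the elongator subunit gene Elp4 follows it. As background, several distal enhancers of Pax6 lie within introns of Elp4. Region 3, from 105515040 to 105517010 of chromosome 2, had the highest level of all 18, above 93.3% of all regions. It had 101, 94.4, 98.8 and 96.3 CPM in WT and 86.4, 94.2, 91.4 and 93.3 CPM in Sd/Sd. By CPM over the library total, every Sd/Sd library was below every WT library, but by only 0.2 CPM at the closest, 94.2 against 94.4. The TMM factors used in the test, 1.003 for WT replicate 2 and 0.9997 for Sd/Sd replicate 2, reverse the order of these 2 libraries. The separation at region 3 therefore depends on the scaling. Its spread within groups was 3.34% of the mean, among the lowest 0.192% of regions. The log2 fold change was -0.09 (SE 0.094, 95% interval -0.27 to 0.10, unadjusted p = 0.344, adjusted p = 0.947 in edgeR).

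Region 2, from 105499811 to 105501394, lay 13645 bp before region 3 and differed in the other direction. It had 44, 44.4, 42.1 and 48 CPM in WT and 52.5, 51.1, 59.1 and 50.7 CPM in Sd/Sd. All 4 Sd/Sd libraries were above all 4 WT libraries, with means of 44.6 ± 2.47 and 53.4 ± 3.91 CPM (SD, n = 4 each). The log2 fold change was 0.26 (1.2-fold, SE 0.12, 95% interval 0.02 to 0.50), with an unadjusted p = 0.034 and an adjusted p = 0.802 in edgeR. The unadjusted p stayed under 0.05 in 4 of the 8 fits that left out 1 library. It reached up to 0.119 without WT replicate 1, 2 or 3 or Sd/Sd replicate 3. By CPM, the groups were apart at 2 of the 18 members, regions 2 and 3 of this window, against 3.2% of all regions. A peak overlapped region 2 in all 4 Sd/Sd libraries and in WT replicates 1 and 4, the deeper ones of WT, but the peak of Sd/Sd replicate 2 covered only 110 of its 1584 bp. Peaks over at least 50% of the region were in 2 of 4 libraries of each genotype. Where called, its fold enrichment was 2.62 and 2.96 in WT and 2.41 to 2.66 in Sd/Sd. These fold enrichments overlapped between the genotypes, but they cover only 2 of 4 WT libraries. They cannot be set beside the CPM of all 8 libraries.

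In the remaining wide regions of the Pax6 window the genotypes overlapped. Region 1, from 105451339 to 105453121, had 60.8, 65.9, 68.2 and 73.8 CPM in WT and 57.8, 65.4, 65.8 and 65.5 CPM in Sd/Sd (log2 fold change -0.07, 95% interval -0.28 to 0.14). Region 6, from 105529611 to 105530786, had 66.9, 54.3, 44.2 and 57.1 CPM in WT and 54.4, 57.6, 54.9 and 48.1 CPM in Sd/Sd (-0.05, -0.28 to 0.18). Both ranges overlapped, and WT was the more scattered group in each. Region 1 carried a peak in all 8 libraries, as did region 3, region 2 of the Nkx2-2 window and region 1 of the Irx3 window. That was 4 of the 18, against 41.3% of all regions.

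Between them lay regions 4 and 5, and at the far end regions 7 and 8. Region 4 (105521635 to 105522544) had 18.8 to 33.1 CPM in WT against 22.3 to 30.8 in Sd/Sd, and region 5 (105527749 to 105528310) had 21.2 to 33.7 and 22.7 to 27.5. After a gap of 100418 bp, region 7 (105631205 to 105631537) had 12.3 to 16.2 CPM in WT against 12.9 to 16.9 in Sd/Sd. Region 8 (105639871 to 105640297) had 11.6, 10.3, 16 and 8.2 CPM in WT and 7.78, 10.7, 8.14 and 8.37 CPM in Sd/Sd. In region 8 only 2 Sd/Sd libraries lay below all of WT, and the log2 fold change was -0.39 (95% interval -0.94 to 0.16). It was -0.20 without WT replicate 3, the highest library there, and -0.52 without WT replicate 4, the lowest of WT. Region 8 entered the counts through peaks in WT replicates 1 and 3 alone, and region 4 through Sd/Sd replicates 3 and 4 alone. The part of that selection in their changes was not tested. Regions 4, 5 and 7 had changes of 0.14, -0.10 and 0.08. The value for region 4 was 0.34 (unadjusted p = 0.073 in edgeR) without WT replicate 3, which stood apart from the rest of WT, and 0.05 without WT replicate 1 or Sd/Sd replicate 3. All 8 regions summed to 338, 337, 339 and 351 CPM in WT and 324, 337, 350 and 333 CPM in Sd/Sd. The sums overlapped and did not follow region 2, with means of 341 ± 6.43 and 336 ± 11.1 CPM (SD, n = 4 each).

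The Irx3 window held 2 regions in 400 kb. Region 1, from 94325047 to 94326281 of chromosome 8, had 42.6, 38.7, 34.4 and 41 CPM in WT and 41.4, 39.5, 45.5 and 37.6 CPM in Sd/Sd. The groups overlapped (log2 fold change 0.06, 95% interval -0.20 to 0.33), and all 8 libraries had a peak, at 2.75 to 3.13 fold enrichment in WT and 2.85 to 3.3 in Sd/Sd. Region 2, from 94342768 to 94343064, lay 16486 bp away and had 9.27, 6.29, 9.05 and 11.4 CPM in WT. In Sd/Sd it had 13.3, 15.5, 10.3 and 9.33 CPM, so 2 Sd/Sd libraries exceeded all of WT and 2 did not. The log2 fold change of 0.42 was the highest of the 18 (1.33-fold, SE 0.27, 95% interval -0.12 to 0.95, unadjusted p = 0.127, adjusted p = 0.876 in edgeR), and it rested on 19 to 48 counts per library. Peaks on it were called in Sd/Sd replicates 1 to 3 and in 0 of 4 WT libraries. It thus entered the counts through Sd/Sd peaks alone, and the part of that selection in its change was not tested. The nearest counted regions beyond this couple stood 487225 and 536550 bp away. The sums were 51.9, 45, 43.5 and 52.4 CPM in WT and 54.7, 55, 55.8 and 46.9 CPM in Sd/Sd, where 3 Sd/Sd libraries exceeded every WT library and replicate 4 did not. Their log2 difference of 0.14 was close to the SD between libraries of 0.13, and it was 0.07 where a mean count of at least 50 was required, which leaves region 1 alone. Without WT replicate 3 it was 0.09.

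The Olig2 window held 2 regions 43800 bp apart. In the RefSeq gene order Olig1, its paralogue in the oligodendrocyte lineage, is the next protein-coding gene. Region 1, from 91225460 to 91225980 of chromosome 16, had 15.6, 21.9, 22.3 and 14.6 CPM in WT and 16.1, 15.5, 9.95 and 12 CPM in Sd/Sd. WT replicates 2 and 3 were the highest and Sd/Sd replicates 3 and 4 the lowest, while the other 4 libraries lay between 14.6 and 16.1 CPM. The groups therefore overlapped, at means of 18.6 ± 4.02 and 13.4 ± 2.93 CPM (SD, n = 4 each). The log2 fold change was -0.46 (0.726 of WT, SE 0.22, 95% interval -0.88 to -0.04), with an unadjusted p = 0.0329 and an adjusted p = 0.802 in edgeR. The unadjusted p stayed under 0.05 in 4 of the 8 fits that left out 1 library and was up to 0.132 without WT replicate 2 or 3 or Sd/Sd replicate 3 or 4. Counts per library were 33 to 66. A peak was called in WT replicates 2 and 3, at 4.14 and 3.37 fold enrichment, and in Sd/Sd replicate 1 at 3.67.

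Region 2 of the Olig2 window, from 91269781 to 91270821, had 27.8, 31.5, 20.5 and 24.6 CPM in WT and 27.8, 26.9, 24.1 and 21.8 CPM in Sd/Sd. The groups overlapped (log2 fold change -0.05, 95% interval -0.38 to 0.27), and peaks were called in 3 of 4 libraries of each. WT replicate 2 had the highest fold enrichment of any peak in the 5 windows there, 4.59, against 3.13 to 3.54 in the other libraries with a peak. The window sums were 43.5, 53.3, 42.8 and 39.2 CPM in WT and 43.9, 42.4, 34.1 and 33.7 CPM in Sd/Sd. Their log2 difference of -0.22 was close to the SD between libraries of 0.19, and it was -0.13 without WT replicate 2. The Olig2 sum was the lowest per length of the 5, at 26.6 CPM per kb.

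The Nkx2-2 window held 2 wide regions 14746 bp apart, at 35.1 CPM per kb. Nkx2-4, a related homeobox gene, precedes Nkx2-2 in the RefSeq gene order and the antisense Nkx2-2os follows it. Region 1, from 147003468 to 147004856 of chromosome 2, had 59.4, 60.3, 43.5 and 43.6 CPM in WT and 51.9, 52.1, 53.1 and 56.2 CPM in Sd/Sd. All 4 Sd/Sd libraries lay between the 2 high and the 2 low WT libraries, with SDs of 1.99 in Sd/Sd and 9.4 in WT. Region 2, from 147019603 to 147021465, had 66.4, 63.2, 67.5 and 55.6 CPM in WT and 56.7, 70.2, 56.1 and 57.4 CPM in Sd/Sd. The log2 fold changes were 0.05 (95% interval -0.18 to 0.29) and -0.07 (-0.29 to 0.15), so changes above 1.3-fold lay outside both intervals. The sums were 126, 124, 111 and 99.3 CPM in WT and 109, 122, 109 and 114 CPM in Sd/Sd.

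**Figure D3:**
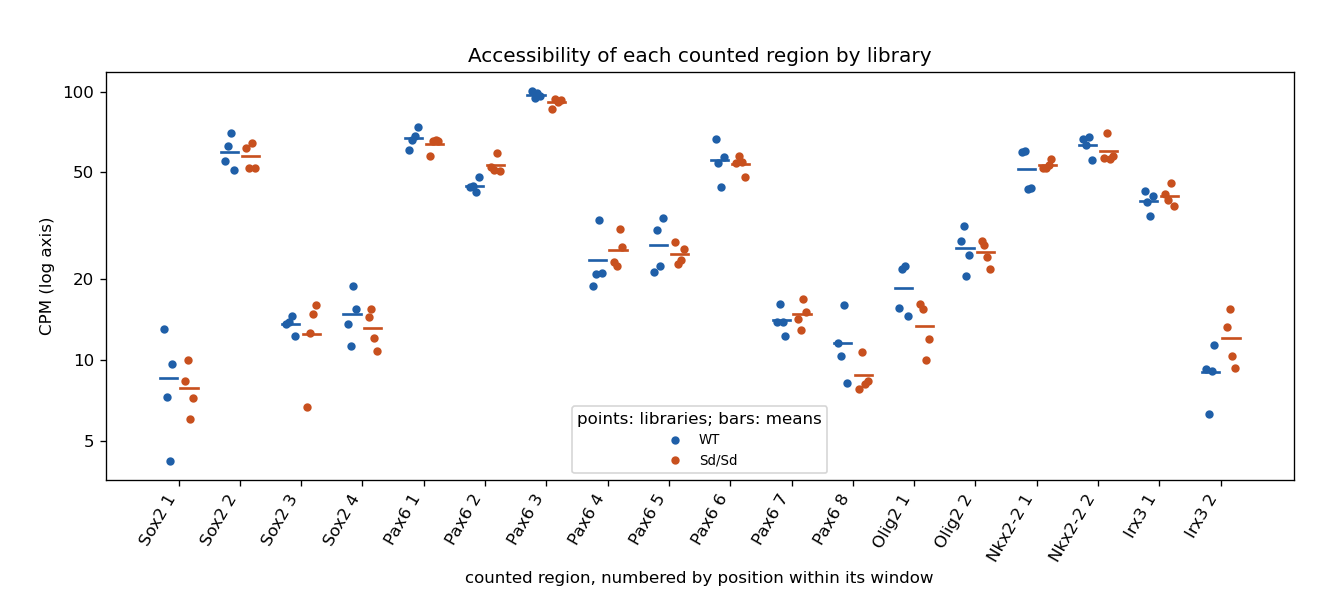
CPM of each of the 18 regions (y axis, log) in the 4 WT and 4 Sd/Sd libraries, with bars at the means and regions numbered by position within their window (x axis). By CPM over the library total, the groups are apart only at regions 2 and 3 of the Pax6 window. The WT and Sd/Sd means there are 44.6 and 53.4 CPM and 97.5 and 91.3 CPM.

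**Figure D4:**
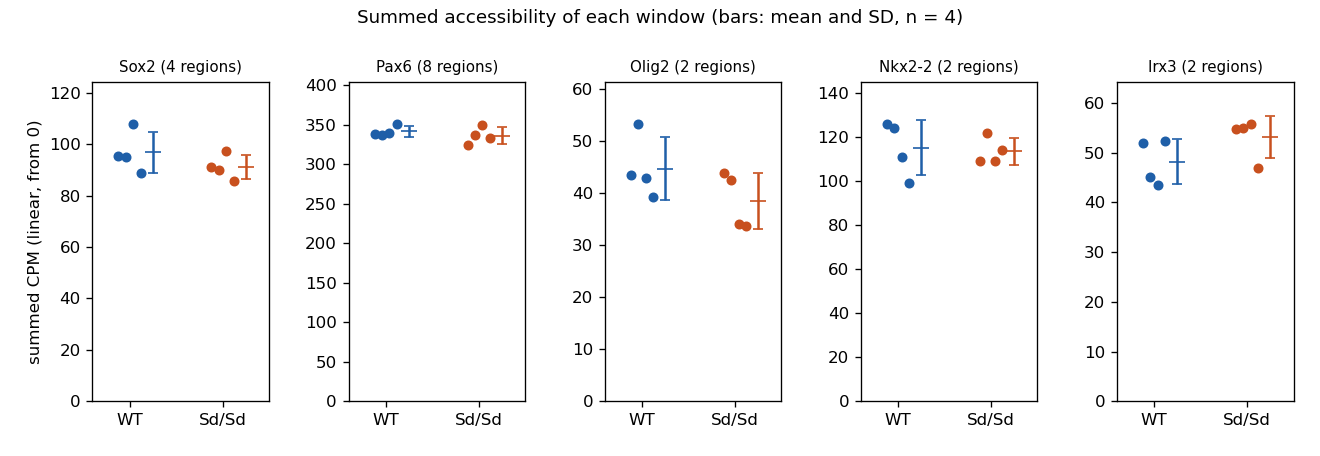
Summed CPM of the counted regions of each window (y axis, linear from 0) in each library, with the mean and SD of each genotype. The WT and Sd/Sd ranges overlap in all 5 windows, with ratios of the means from 0.862 (Olig2) to 1.1 (Irx3).

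Per length, the order of their levels over the 8 libraries was Pax6 at 38.7 ± 1.01 CPM per kb, Nkx2-2 at 35.1 ± 2.79, Irx3 at 33.1 ± 3.16, Sox2 at 28.1 ± 2.01 and Olig2 at 26.6 ± 3.99 (SD, n = 8 libraries). Each window overlapped its neighbours in this order, and the Pax6 window, from 37.0 to 40.1 CPM per kb, lay wholly above Irx3, Sox2 and Olig2. All 18 regions together took 655, 654, 643 and 630 CPM of the WT libraries and 622, 647, 647 and 613 CPM of the Sd/Sd libraries, a ratio of 0.979 with overlapping ranges. Across the 8 libraries, which share a denominator within each library, the log2 sums of the 10 couples of windows correlated at a Pearson's r between -0.40 (Sox2 and Irx3) and 0.47 (Olig2 and Nkx2-2). These values are given as a description only.

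The authors' peak lists gave 108 peaks in the 5 windows over the 8 libraries, with 12, 14, 9 and 15 in WT and 17, 11, 15 and 15 in Sd/Sd. The groups overlapped, at 12.5 ± 2.65 and 14.5 ± 2.52 peaks (SD, n = 4 each); this number was not tested. Their median fold enrichment was 2.85 and the highest 4.59, against 3.33 and 31.6 over all 187862 peaks. A region entered the counts only with a peak in at least 2 libraries. Regions with peaks in 1 genotype only were region 2 of the Irx3 window (3 Sd/Sd) and region 4 of the Pax6 window (2 Sd/Sd), with log2 fold changes of 0.42 and 0.14, and region 1 of the Sox2 window and region 8 of the Pax6 window (2 WT each), with -0.13 and -0.39. The sign followed the genotype that supplied the peaks in these 4, and the part of that selection in the values was not tested. How many of all regions had peaks in 1 genotype only was not counted here, so these 4 are not called particular to the windows.

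**Figure D5:**
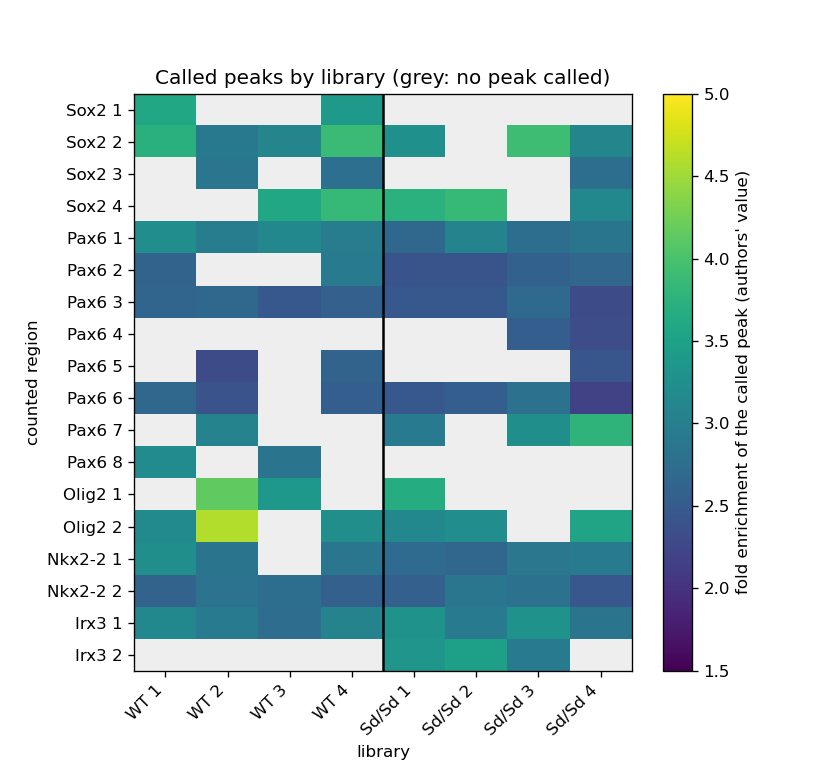
Called peaks on each of the 18 regions (y axis) in each library (x axis), coloured by the authors' fold enrichment (highest peak per region and library), with grey where no peak was called. Regions 1 and 3 of the Pax6 window, 2 of the Nkx2-2 window and 1 of the Irx3 window have a peak in all 8 libraries, and region 2 of the Irx3 window has none in WT.

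Of the 108 peaks, 14 lay on no counted region, 5 in WT and 9 in Sd/Sd libraries. Those shared by 2 libraries were at 105508730 to 105509102 in the Pax6 window (WT replicates 2 and 3, fold enrichment 2.33 and 2.64), at 147012981 to 147013966 in the Nkx2-2 window (Sd/Sd replicates 2 and 3, 2.39 and 2.56) and at 94236543 to 94237806 in the Irx3 window (WT replicate 4 and Sd/Sd replicate 3, 2.77 and 2.73). Levels of these intervals were not analysed here. The shares of all peaks by genotype are not given, so no split of peaks by genotype is read as a difference. Library totals reached 3451166 counts in WT and 4180434 in Sd/Sd, and the part of depth in the peak numbers was not tested.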

How the data were processed

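The 4 WT and 4 Sd/Sd ATAC-seq libraries of tailbud tissue were grouped by the labels. Per the submitters' processing notes the build was mm9, and the tools included MACS2 2.1.1.20160309, bedtools 2.26.0 and BWA 0.7.15-r1140. The sources used here give no settings and do not say whether reads were shifted for the Tn5 offset. The authors deposited whole-number counts per region, not normalized. They also deposited broad peaks called per library, each with a score, a fold enrichment (ratio) and the −log10 of its p-value and q-value from the peak caller.

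Here, CPM are counts over the library total. Differences were tested over all 26620 regions with edgeR 4.0.16 (quasi-likelihood, robust, TMM, two-sided) in R 4.3.3, with Benjamini-Hochberg adjustment, after testing on simulated counts. filterByExpr removed 0 regions, so all 18 members were tested. Members overlapped a window by at least 1 bp. The rule named, per window, the 3 highest regions, the largest and smallest change and each unadjusted p under 0.05. All 18 members were described. Members and lists were chosen with earlier results of these data known. The spread behind the p-values is that between libraries, which may be partly technical. Libraries of 1 genotype differed beyond counting noise (chi-square over degrees of freedom 2.18 to 3.25). Alternatives were DESeq2 1.42.0, limma 3.58.1 (voom with a quality weight per library), other scalings and a filter. Further ones were wider windows, stricter peaks, a block for the replicate number and fits without each library.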

Additional observations from a re-analysis of the deposited data

Results flagged for a closer look

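Of 46 groups of 4 libraries examined (18 regions and 5 window sums in each genotype), 5 held 1 library far from the other 3. Chance gives about 1 group in 20. The sums are made of the same regions, so the groups are not independent, and 5 was not tested against that rate. In region 1 of the Pax6 window, Sd/Sd replicate 1 was low at 57.8 CPM, the rest of its group being at 65.4 to 65.8. In region 4 of the Pax6 window, WT replicate 3 was high at 33.1 CPM, the rest of WT being at 18.8 to 21.1. In region 2 of the Nkx2-2 window, Sd/Sd replicate 2 was high at 70.2 CPM, the rest being at 56.1 to 57.4. The Pax6 window sum was 351 CPM in WT replicate 4 against 337 to 339 in the other WT libraries. The Irx3 window sum was 46.9 CPM in Sd/Sd replicate 4, with 54.7 to 55.8 in the rest of that group. These 5 came from 5 different libraries.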

How the results depend on the processing

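Over the series, the 5 calls of edgeR became 3 with upper-quartile scaling, 3 with DESeq2, 9 with limma and voom, 15 without robust variance and 2 to 19 with 1 library left out, and none of the 18 members was called in any of these fits. The replicate block gave 23 calls, none a member. The labels do not say that a replicate number marks a litter or day, so the numbers were not taken to pair the libraries. Deviations of same-numbered libraries correlated at 0.0037, 0.0082, -0.0011 and 0.0918. Differently numbered couples of a WT and an Sd/Sd library ran from -0.0473 to 0.0204, so the value of replicate 4 was the highest. The 2 members with an unadjusted p under 0.05 were the same with every other tool, scaling, filter and block, and numbered 0 to 2 with 1 library left out: 0 without WT replicate 2, WT replicate 3 or Sd/Sd replicate 3, and 1 without WT replicate 1 (region 1 of the Olig2 window) or Sd/Sd replicate 4 (region 2 of the Pax6 window). The share of all regions with such a p was 4.42% with DESeq2, 5.95% with limma and voom and 6.88% with the replicate block. With 1 library left out this share ran from 4.82% to 7.7%. It was 6% to 6.09% with the other scalings, with the filter and without robust variance. Widening the windows by 50 kb gave 22 regions and also 2, where 6.06% of all regions had such a p. Requiring a mean count of 50 left 12 members. The 4 regions with a peak in all 8 libraries became 0 with peaks of q at most 1e-05 and 0 with an overlap of at least 50% of the region. On these 4 regions the −log10 of q was at most 3.71, so no peak there could meet the stricter bound. Its median over the peaks of the 5 windows was 2.22, against 3.11 over all peaks. The cause of the other changes was not tested.

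Of 282 refitted changes of the 18 regions, 273 kept their direction and 9, each in a fit without 1 library, did not. Their ranges over such fits were -0.35 to 0.15, -0.11 to 0.03 and -0.27 to 0.11 for regions 1, 2 and 3 of the Sox2 window, -0.21 to 0.03 and -0.15 to 0.05 for regions 5 and 6 of the Pax6 window, -0.15 to 0.04 for region 2 of the Olig2 window and -0.02 to 0.13 for region 1 of the Nkx2-2 window. For the others they were -0.27 to -0.04 for region 4 of the Sox2 window, -0.12 to -0.02, 0.21 to 0.30, -0.11 to -0.06, 0.05 to 0.34, 0.01 to 0.15 and -0.52 to -0.20 for regions 1, 2, 3, 4, 7 and 8 of the Pax6 window, -0.56 to -0.35 for region 1 of the Olig2 window, -0.15 to -0.04 for region 2 of the Nkx2-2 window, and 0.01 to 0.11 and 0.28 to 0.56 for regions 1 and 2 of the Irx3 window. Without each library in turn, the log2 differences of the window sums ran from -0.12 to -0.03 for Sox2, -0.04 to 0 for Pax6, -0.28 to -0.13 for Olig2, -0.08 to 0.03 for Nkx2-2 and 0.09 to 0.20 for Irx3. Requiring a mean count of 50 gave -0.05 for Sox2 and 0.07 for Irx3, and widening the windows gave 0 for Pax6 and 0.01 for Nkx2-2. Counts of 12 to 67 in the narrow Sox2 regions limit what could be seen there.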

Other observations

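Regions 2 and 3 of the Pax6 window, chosen after their values were seen, are neighbours whose ratio within a library does not depend on scaling. The counts of region 2 over those of region 3 were, in replicate order, 0.438, 0.470, 0.426 and 0.498 for WT. For Sd/Sd they were 0.608, 0.543, 0.647 and 0.544. Every Sd/Sd library was above every WT library. The ratio combines the only members whose groups were apart by CPM over the library total, in opposite directions. The separation of the ratio therefore follows from the choice and was not tested.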
